A study of Mus musculus with 18 samples.

Results

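A mature olfactory sensory neuron (OSN) detects odours on the many immotile cilia of its dendritic knob. The genes described here encode the machinery that builds such cilia and moves proteins in and out of them. They were taken from the expression table by symbol: Ift or Bbs or Tctn followed by a number, together with a list of single genes that includes Ttc8, Ttc21b, Kif3a, Kif3b, Kif17, Kifap3, Wdr19, Wdr35, Dync2h1, Dync2li1, Arl3, Arl6, Mks1, Cep290, Tmem67 and Rpgrip1l. This gave 41 of the 23359 gene symbols in the table. Ift22 was listed only under its older symbol, Rabl5, and is therefore not among the 41.

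The 18 RNA-seq libraries came from mice labelled C57BL/6, while the study describes its lines as a mixture of C57BL/6J with 129. Their main olfactory epithelium (MOE) was dissociated and the cells separated by fluorescence-activated cell sorting (FACS). In the Taar5 line (labelled TAAR5-Cre&L10-GFP), an ires-Cre cassette behind the coding sequence of Taar5, a trace amine-associated receptor (TAAR) gene, switches on the Cre-dependent reporter lox-L10-GFP. GFP-positive (Taar5+, n = 7) and GFP-negative (control, n = 9) cells were collected at postnatal day 11 to 14. In the Taar6 line (labelled TAAR6-Cre&ZsGreen), made in the same way with lox-ZsGreen, 1 ZsGreen-positive (Taar6+) and 1 ZsGreen-negative (Taar6 line control) library were collected at postnatal day 16 to 17. These ages are those of the labels, and the study's own summary of its animals gives an older age, in weeks, for both lines. All mice thus carried a Cre allele and a reporter, controls included. Per the study, most control cells are OSNs with an odorant receptor (OR), and reporter-positive cells are a mixture of TAAR OSNs. The labels do not state that the libraries of a group came from separate mice, so p-values measure only the spread between these libraries.

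Values are TPM (transcripts per 1000000), which are corrected for transcript length and scaled to the same sum in each library, so sequencing depth is unknown. Taar5 itself, in the 8 controls with Taar values of their own, ranged from 0 to 7.71 TPM (median 0.111), against 47.0 to 347 TPM (median 227) in Taar5+ cells. Omp, the olfactory marker protein of mature OSNs, ranged from 3908 to 20070 TPM in controls and from 8597 to 18195 TPM in Taar5+ cells. Between 9784 and 17653 genes were above 0 in each library of the Taar5 line other than control replicate 2, in which only 5878 were. In control replicate 2, the 13 Taar values above 0 were also identical to those of control replicate 1. This library stands apart for the cilia genes as well, and results that rest on it are given with and without it.

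Cilia have no ribosomes and import all their proteins. Intraflagellar transport (IFT) trains of the complexes IFT-A and IFT-B carry cargo along the axoneme, outwards by kinesin-2 motors and back by dynein-2. The BBSome, a coat-like complex recruited to membranes by the small GTPase ARL6, moves membrane proteins such as receptors along with the trains, and 2 further BBS proteins of this set belong to a chaperonin-like complex needed for its assembly. The transition zone at the ciliary base acts as a gate. Loss of BBSome genes causes Bardet-Biedl syndrome, of which a poor sense of smell is a known feature.

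Many ciliary genes are controlled by RFX transcription factors, which bind the X-box, a near-palindromic motif. RefSeq promoter windows (GRCm38.p6, 250 bases before to 50 bases after the gene start) were matched to 36 of the 41 genes. Dync2li1, Ift80, Ift81, Ift122 and Tmem67 were not matched. The motif searched was GTTNCC, then 2 free letters, then GGNAAC, which reads the same on both strands. The following stretches are shown because they hold the best matches, with no or 1 mismatch in the 10 fixed letters. The motif is in capitals, and all are in the direction of the gene.
Bbs7: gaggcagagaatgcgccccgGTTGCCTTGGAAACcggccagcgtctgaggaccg
Mks1: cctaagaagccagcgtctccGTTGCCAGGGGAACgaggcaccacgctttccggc
Tctn1: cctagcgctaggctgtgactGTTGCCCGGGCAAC
Bbs1: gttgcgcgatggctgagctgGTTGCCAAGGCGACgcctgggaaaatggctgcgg
Bbs4: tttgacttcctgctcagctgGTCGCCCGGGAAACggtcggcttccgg
Ift57: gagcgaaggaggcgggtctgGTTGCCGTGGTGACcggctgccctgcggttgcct
Tctn2: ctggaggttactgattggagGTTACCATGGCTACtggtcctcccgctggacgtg

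The stretches of Bbs7 (chr3:36613477-36613530, minus strand), Mks1 (chr11:87853171-87853224, plus strand) and Tctn1 (chr5:122264411-122264444, minus strand) hold the motif with no mismatch. Those of Bbs1 (chr19:4906593-4906646, minus strand), Bbs4 (chr9:59353459-59353505, minus strand), Ift57 (chr16:49699187-49699240, plus strand) and Tctn2 (chr5:124598667-124598720, plus strand) have 1 mismatch. Positions are counted from the RefSeq gene start of the window. The GENCODE M21 starts behind the gene positions given below can differ from it, as for Bbs7 and Ift57. The motif begins 121 bases before the RefSeq start in Bbs7, 24 before in Mks1, 87 before in Ift57 and 62 before in Tctn2. In Tctn1, Bbs1 and Bbs4 it begins just behind the start, at base 37, 2 and 24 of the transcript.

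An exact X-box was thus present in 3 of 36 promoters (8.33%), against 0.529% of all 27025 genes with a promoter window and 0.723% of the 9272 of them that passed the filter on low values given below. With up to 1 mismatch, the shares were 19.4% (7 of 36), 2.89% and 3.98%. With up to 2 mismatches, they were 33.3% (12 of 36), 15.8% and 18.1%. The short core GTTGCC, on either strand and overlapping many of the longer matches, was found in 17 of 36 promoters (47.2%), against 14.1% of all promoters and 15.2% of those that passed the filter. The median GC content of the windows was 60.0% for the cilia genes, 60.5% for the genes that passed the filter and 52.8% for all, so the cilia genes differed little from other expressed genes in base composition. A match describes letters in this window and does not show a binding site.

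**Figure D1:**
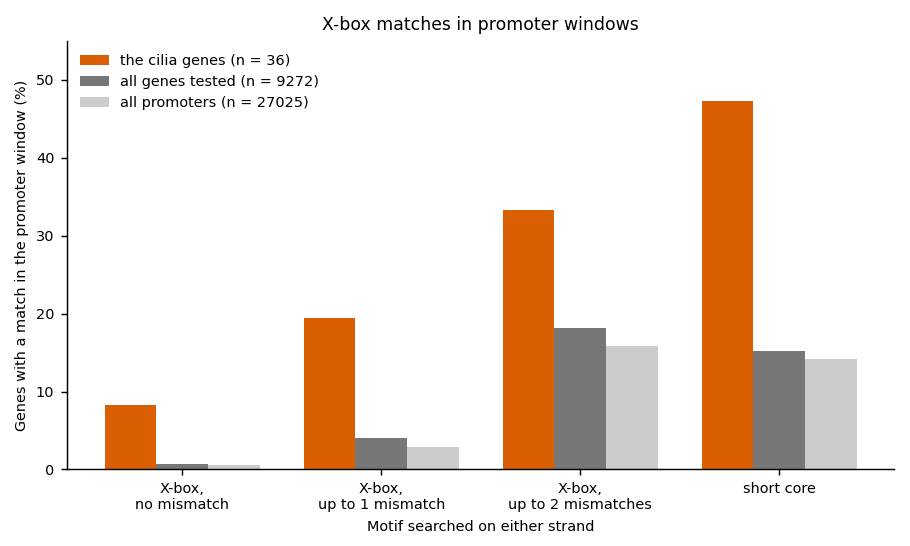
Share of genes (%, y axis) whose promoter window holds the X-box with up to 0, 1 or 2 mismatches or the short core (x axis), for the 36 cilia genes with a window, the 9272 genes that passed the filter and all 27025 genes. The bars of the cilia genes are the highest in each of the 4 groups, 47.2% against 15.2% and 14.1% for the short core.

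All 41 genes were expressed and passed the filter on low values, which asks for 1 TPM or more in 7 or more of the 16 Taar5 line libraries. Their mean levels over these libraries spanned from 4.04 TPM (Ttc21b) to 584 TPM (Ift43). Placed among all gene symbols, these means lay between percentiles 53.1 and 99.0, with a median percentile of 88.8. The highest after Ift43 were Arl3 (518 TPM), Ift20 (258 TPM), Arl6 (254 TPM) and Bbs4 (183 TPM). The lowest after Ttc21b were Tctn1 (7.98 TPM), Kif17 (10.1 TPM), Cep290 (11.4 TPM) and Rpgrip1l (12.1 TPM).

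Within IFT-A, which joins retrograde transport to the entry of membrane proteins, the subunits differed widely. Ift43, encoding the smallest of these subunits (chr12:86082541-86162459, plus strand; gene positions are those of GENCODE M21 on GRCm38), was at 427 to 749.8 TPM in controls (median 593) and at 376 to 800.3 TPM in Taar5+ cells (median 511). Ift140, a core subunit (chr17:25016085-25099495, plus strand), was at 0 to 65.5 TPM in controls (median 23.9) and at 19.1 to 53.0 TPM in Taar5+ cells (median 32.6). The Ift43 ranges of both groups lie above every Ift140 value, and for each gene the groups overlap. The longest coding transcripts of Ift43 and Ift140 have 783 and 6942 bases, and the part of length in their levels was not tested. The mean levels of the other 4 subunits, Wdr35, Ift122, Wdr19 and Ttc21b, were 86.9, 71.2, 26.3 and 4.04 TPM.

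IFT-B, the complex of the anterograde trains, is represented here by 10 genes with an Ift symbol. These were more even, with mean levels from 37.5 TPM (Ift172) to 258 TPM (Ift20). Further IFT-B genes are among the other transport genes below, and not all lie in this range. Ttc26 had medians of 29.2 TPM in controls and 21.9 TPM in Taar5+ cells, against 37.7 and 29.4 TPM for Ift172. Ift20, which also links the Golgi to the cilium (chr11:78536361-78541737, plus strand), was at 128 to 403 TPM in controls (median 252) and at 191 to 428 TPM in Taar5+ cells (median 254). Ift27, a small GTPase of the train that helps to export BBSome cargo (chr15:78159463-78174107, minus strand), was at 0 to 206 TPM in controls (median 145) and at 58.2 to 203 TPM in Taar5+ cells (median 133). Its only 0 was in control replicate 2, and the other 8 controls began at 91.6 TPM. Ift80, a subunit whose defects cause skeletal ciliopathies (chr3:68892499-69004570, minus strand), was at 8.85 to 159.8 TPM in controls (median 92.2) and at 15.7 to 74.3 TPM in Taar5+ cells (median 51.8). For Ift80, 5 of 9 controls lay above the highest Taar5+ library, while no Taar5+ library lay below the lowest control.

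Among the motors, the kinesin-2 genes had mean levels of 91.9 TPM (Kifap3), 79.0 TPM (Kif3a), 38.3 TPM (Kif3b) and 10.1 TPM (Kif17). Kifap3, the adaptor subunit of heterotrimeric kinesin-2 (chr1:163779583-163917109, plus strand), was at 64.2 to 134 TPM in controls (median 92.2) and at 43.5 to 158 TPM in Taar5+ cells (median 85.5). Kif3b, one of its motor subunits (chr2:153291413-153333390, plus strand), was at 0 to 49.4 TPM in controls (median 42.8) and at 21.1 to 69.1 TPM in Taar5+ cells (median 37.4). The low end of the control range of Kif3b is again control replicate 2, and the other controls began at 13.8 TPM. Dync2li1, the light intermediate chain of dynein-2 (chr17:84626496-84655588, plus strand), was at 117 to 271 TPM in controls (median 158) and at 109 to 340.1 TPM in Taar5+ cells (median 150.1). Dync2h1, its heavy chain (chr9:6928503-7184446, minus strand), was at 0 to 33.2 TPM in controls (median 22.7) and at 12.9 to 33.1 TPM in Taar5+ cells (median 25.0). The light intermediate chain was thus listed well above the heavy chain in both groups. Their longest coding transcripts have 1354 and 14264 bases. Over the 40 cilia genes with a length, longer transcripts went with lower levels in the Taar5 line (Spearman's rho -0.72). Over 11317 genes tested that have a length, rho was -0.31. In the Taar6 line the gap was smaller, at 118 against 45.8 TPM in the control and 89.5 against 46.5 TPM in Taar6+ cells. The part of length in this gap was not tested.

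The 7 BBSome genes among the 41 ran from 13.1 TPM (Bbs1) to 183 TPM (Bbs4) in mean level. Ttc8, Bbs5, Bbs9, Bbs2 and Bbs7 were at 135, 96.4, 85.4, 75.1 and 71.9 TPM. Further BBS genes, among them Bbip1 and Mkks, belong to the other BBS genes below. In control and Taar5+ cells, Bbip1 had medians of 88.4 and 72.6 TPM, and Mkks of 24.1 and 31.3 TPM. Bbs4, which brings the complex to centriolar satellites (chr9:59321990-59353508, minus strand), was at 133 to 298 TPM in controls (median 205) and at 118 to 212 TPM in Taar5+ cells (median 169). Bbs5, which binds phosphoinositides (chr2:69647171-69667571, plus strand), was at 0 to 126 TPM in controls (median 99.7) and at 62.9 to 152 TPM in Taar5+ cells (median 106). Bbs9, a scaffold of the complex (chr9:22475715-22888280, plus strand), was at 41.9 to 144 TPM in controls (median 95.9) and at 29.4 to 109.6 TPM in Taar5+ cells (median 81.1). None of the 3 separates the groups, and without control replicate 2 the controls of Bbs5 began at 70.2 TPM. The 2 chaperonin-like genes among the 41 were low and uneven between libraries. Bbs10 (chr10:111298679-111301727, plus strand) was at 0 to 55.2 TPM in controls (median 14.0) and at 0 to 21.9 TPM in Taar5+ cells (median 11.9). Bbs12 (chr3:37312554-37321453, plus strand) was at 0 to 40.1 TPM in controls (median 9.84) and at 2.28 to 60.1 TPM in Taar5+ cells (median 10.1).

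Of the small GTPases, Arl3 (chr19:46531096-46573198, minus strand) releases lipid-anchored cargo inside the cilium. In the 9 controls, replicates 1 to 9 in turn, Arl3 was at 535, 489.5, 583, 913, 459, 628, 614, 638 and 498 TPM. In the 7 Taar5+ libraries it was at 382, 535, 426, 364, 334, 443 and 449 TPM. Of the Taar5+ libraries, 6 of 7 lay below the lowest control, and Taar5+ replicate 2 lay inside the control range. Arl6, the GTPase that recruits the BBSome (chr16:59612949-59639391, minus strand), was at 0 to 367 TPM in controls (median 292) and at 126 to 328 TPM in Taar5+ cells (median 234). Its 0 was in control replicate 2, and the other 8 controls began at 239 TPM.

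The transition zone genes had mean levels from 7.98 TPM (Tctn1) to 44.3 TPM (Tctn2). Tctn2, a tectonic of the ciliary gate (chr5:124598749-124627738, plus strand), was at 0 to 79.8 TPM in controls (median 45.8) and at 6.18 to 66.5 TPM in Taar5+ cells (median 45.6). Rpgrip1l, a scaffold of the gate (chr8:91217030-91313262, minus strand), was at 1.05 to 18.6 TPM in controls (median 10.7) and at 10.9 to 18.2 TPM in Taar5+ cells (median 14.1). Tctn1, another tectonic (chr5:122237848-122264460, minus strand), was at 0 to 29.1 TPM in controls (median 10.1) and at 0 to 11.4 TPM in Taar5+ cells (median 3.22). For all 3 the groups overlap, and the highest Tctn1 value was that of control replicate 2. Of the exon bases of Tctn1, 25.5% also lie in exons of other gene models, among them the oppositely oriented neighbour Hvcn1. Smart-seq2 does not keep the strand, so reads from the shared bases cannot be assigned to one or the other.

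**Figure D2:**
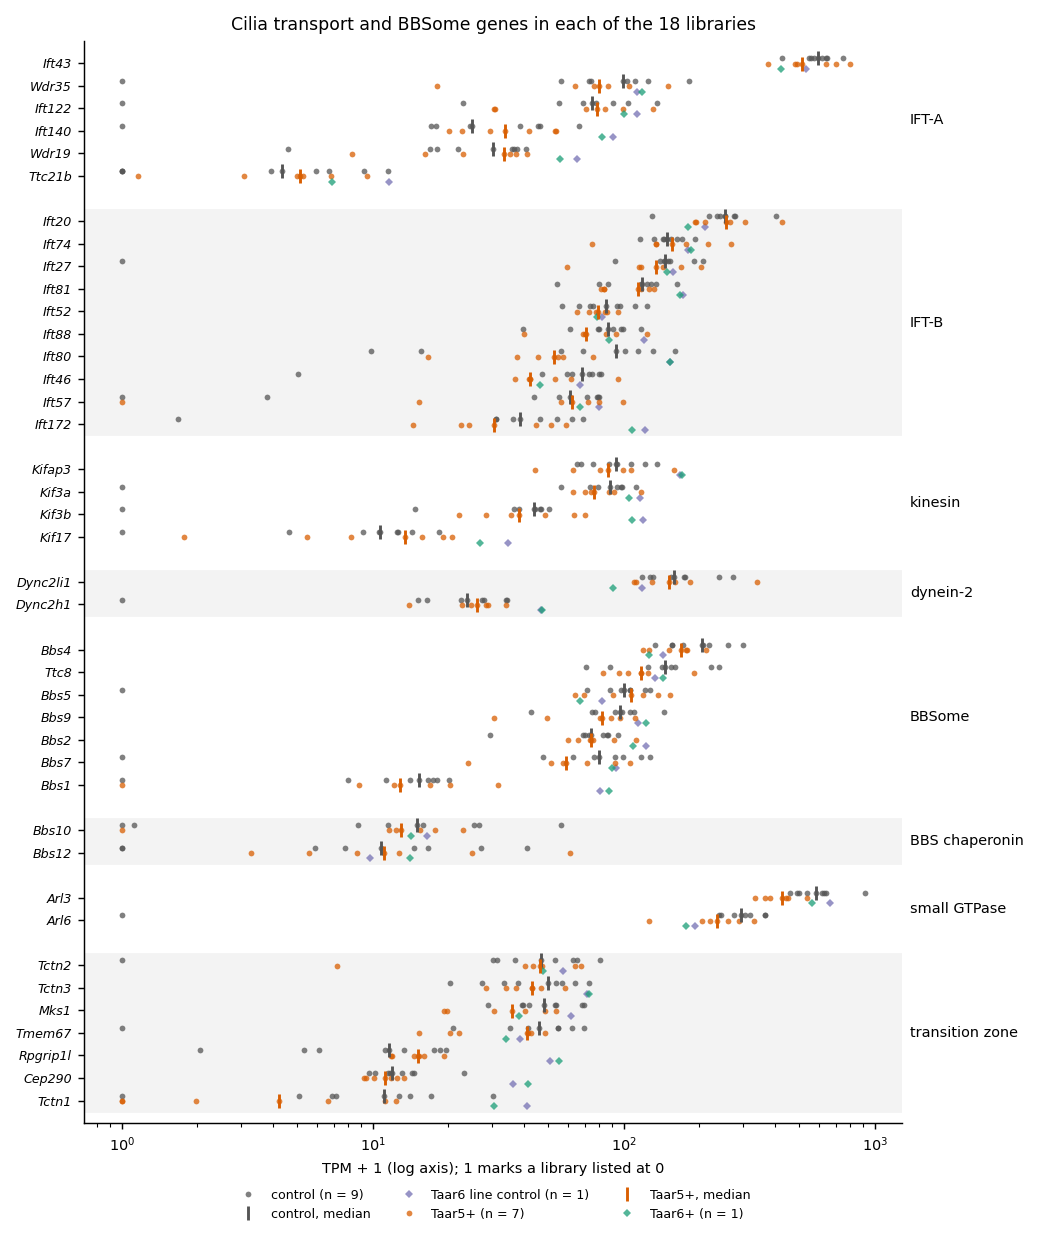
TPM + 1 (x axis, log scale) of 40 of the 41 genes (y axis, by class) in every library, with points for the libraries, ticks for the medians of the 9 control and 7 Taar5+ libraries, and diamonds for the 2 libraries of the Taar6 line. Controls and Taar5+ overlap for every gene shown, and most of the points at 1 (listed at 0) belong to control replicate 2.

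Genes differed in how evenly they were listed between libraries of one group. On the log2(TPM + 1) scale, the SD over the 8 controls other than replicate 2 was 0.15 for Ift43, 0.17 for Bbs2 and 0.17 for Ift74. The SDs over the 7 Taar5+ libraries were 0.37, 0.30 and 0.59 for these genes. At the other end, Bbs10 and Bbs12 had SDs of 1.67 and 1.64 in these controls and of 1.52 and 1.39 in Taar5+ cells, and Ift57 had SDs of 1.48 and 2.36. The genes with the largest spread were mostly those listed at 0 in at least 1 library.

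In control replicate 2, 19 of the 41 genes (46.3%) were listed at 0, against 55.2% of all 12502 genes tested. In the other 15 libraries of the Taar5 line, between 0 and 4 of the 41 were. This library was the lowest of the 16, or tied for lowest, for 27 of the 41 genes. The 19 genes at 0 there had a median level of 47.1 TPM in the other 8 controls, and the 22 genes above 0 had one of 90.1 TPM. Genes listed at 0 included well expressed ones such as Arl6, whose mean in the other controls was 300.0 TPM. Of the 22, 11 were below, 9 within and 2 above the range of the other controls. The summed TPM of the 41 genes was 2208 there, 3608 to 4886 in the other controls (median 4390) and 3023 to 4441 in Taar5+ cells (median 3788).

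**Figure D3:**
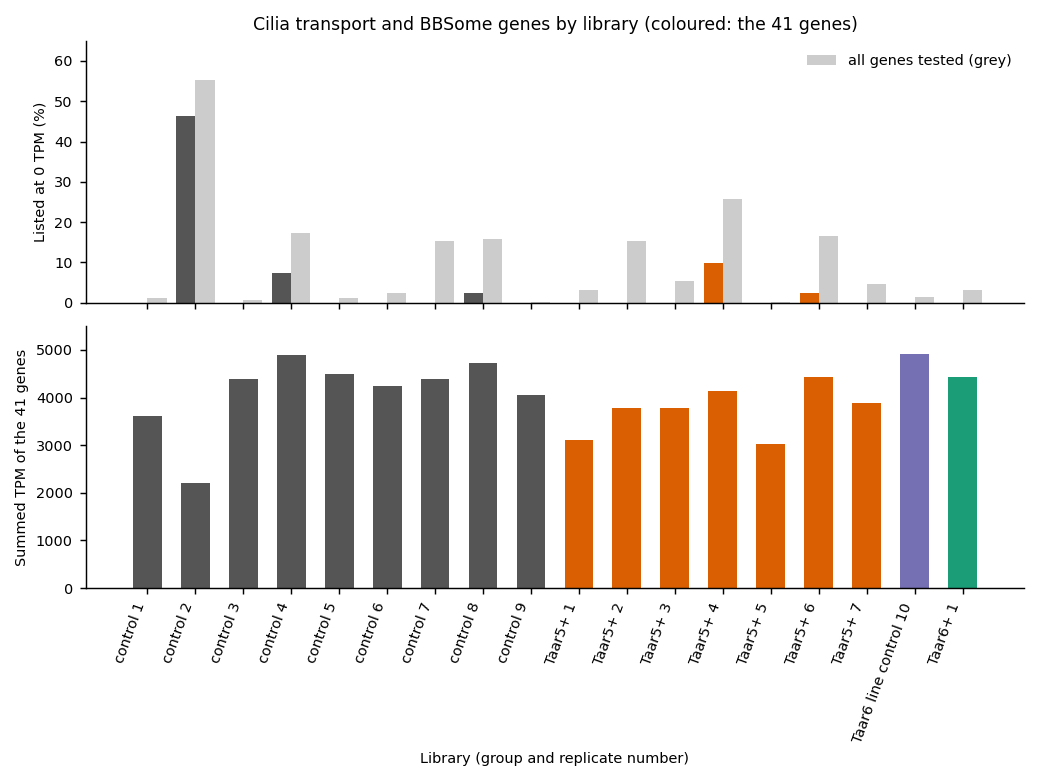
Upper panel, percent of genes listed at 0 TPM in each library (x axis), for the 41 cilia genes (left bar of each pair) and all 12502 genes tested (right bar, light grey). Lower panel, summed TPM of the 41 genes. Dark grey stands for control, orange for Taar5+, purple for the Taar6 line control and green for Taar6+. Control replicate 2 stands apart, with 46.3% of the genes at 0 and a sum of 2208 TPM.

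The comparison of Taar5+ with control cells asks whether OSNs that chose a TAAR gene carry another complement of cilia transport genes than the remaining cells of the MOE. None of the 41 genes passed the test (limma on log2(TPM + 1), two-sided, adjusted p under 0.05 after Benjamini-Hochberg correction over all genes tested), where 0.168% of all genes tested (21 of 12502) did. At an unadjusted p under 0.05, 1 of the 41 (Arl3) was found, where 7.05% of all genes tested (881) were. In none of the 41 were the groups without overlap, where this held for 0.144% of all genes tested (18). The median difference of the 41, Taar5+ minus control, was 0.05 on the log2 scale, beside 0.02 for all genes tested. Differences in bulk cells cannot tell fewer cells of a type from less RNA per cell.

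Arl3 had the smallest p of the 41. Controls averaged 595 ± 136 TPM (SD, n = 9), while the Taar5+ libraries averaged 419 ± 66.4 TPM (SD, n = 7). This amounted to a difference of -0.49 on the log2 scale (SE 0.16, 95% interval -0.82 to -0.16) with an unadjusted p of 0.00558 and an adjusted p of 0.312 in limma, and it did not pass the test. Without control replicate 2 the difference was -0.52 (adjusted p = 0.11, limma). With array weights, which give libraries far from the fit less weight, it was -0.36 and the adjusted p was 0.0277, in a fit in which 1349 genes passed. When each library was centred on the median of the genes tested, the difference was -0.68 and the unadjusted p 0.226.

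For many of the other genes, though not all, the direction depended on control replicate 2. Genes with a negative difference in the fit of all 16 libraries stayed negative without it. With all 16 libraries the difference was positive for 25 of the 41 genes (61.0%), where it was for 51.4% of all genes tested. Without that library the difference was positive for 8 (19.5%), against 35.0% of all genes tested. The median difference moved from 0.05 to -0.22, while that of all genes tested moved from 0.02 to -0.17. The 3 largest positive differences, of Bbs5 (0.74), Kif3b (0.68) and Ift140 (0.66), became 0.00, 0.10 and 0.11. Those of Arl6 (0.54), Ift27 (0.57) and Tctn2 (0.29) became -0.37, -0.23 and -0.33. All 6 were listed at 0 in control replicate 2. None of these values passed the test in either fit, so no direction is given for any gene.

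By class, the median difference was 0.32 for IFT-A, 0.03 for IFT-B, 0.41 for the kinesin-2 genes, 0.23 for dynein-2, -0.03 for the BBSome, 0.30 for the chaperonin-like genes and -0.08 for the transition zone. Without control replicate 2, the medians were -0.12, -0.23, -0.12, -0.04, -0.31, -0.09 and -0.33 in the same order, all below 0. The largest negative difference of the set was that of Tctn1 (-1.26, SE 0.73, adjusted p = 0.852), and -1.03 without that library (adjusted p = 0.676). Rpgrip1l had the largest positive difference in the transition zone (0.60, SE 0.50, adjusted p = 0.947). In the other classes the largest negative differences were those of Ift80 (-0.47), Bbs9 (-0.33), Kifap3 (-0.10), Ift43 (-0.09) and Dync2li1 (-0.07), and the highest BBSome gene, Bbs4, had -0.29. Dync2h1 and Bbs12 had the largest positive ones in theirs (0.54 and 0.58), each with an adjusted p above 0.9 in limma.

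How large a difference these libraries could show varied with the gene. The median SE of the 41 differences was 0.61 with all 16 libraries and 0.29 without control replicate 2, against 0.63 and 0.50 for all genes tested. With all libraries, the 95% interval lay within 1 log2 unit of 0 for 14 of the 41 genes (34.1%, and 17.2% of all genes tested). Without control replicate 2 it did for 25 (61.0%, and 29.6% of all genes tested). For those genes a difference of more than 2-fold on this scale lies outside the interval. Examples are Ift43 (-0.43 to 0.26), Ift20 (-0.41 to 0.52), Ift74 (-0.45 to 0.54) and Bbs4 (-0.72 to 0.14). For Arl6 the interval ran from -1.38 to 2.46, and from -0.76 to 0.01 without that library.

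**Figure D4:**
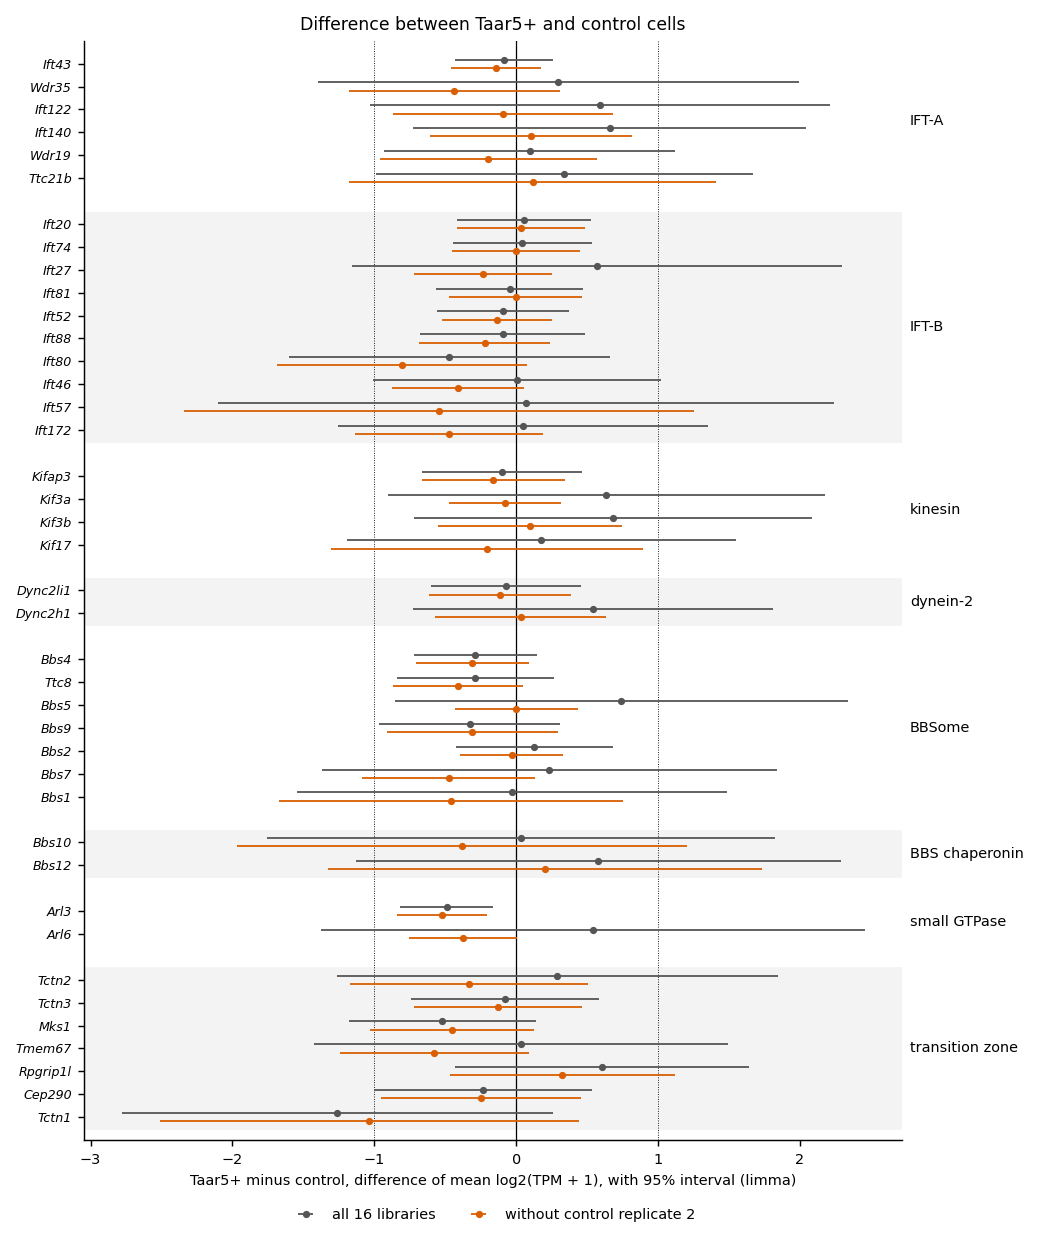
Difference of mean log2(TPM + 1), Taar5+ minus control (x axis), with its 95% interval for 40 of the 41 genes (y axis, by class), with all 16 libraries (grey) and without control replicate 2 (orange). Dotted lines mark 1 log2 unit. The interval of Arl3 is the only one that excludes 0 in either fit, and the positive differences of the 3 genes Bbs5, Kif3b and Ift140 shrink to between 0.00 and 0.11 without that library.

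Other genes of the cilium were taken from lists. Of 80 genes in 7 lists, 73 were in the table under the symbols searched. Of these, 69 passed the filter and none passed the test. An unadjusted p under 0.05 in limma was found for 3 of the 69, where it was for 7.05% of all genes tested (881 of 12502). The 14 other transport genes (further IFT-B, dynein-2 and kinesin subunits and their regulators) had a median difference of -0.02, with the highest level in Rabl2, a GTPase that joins IFT trains at the ciliary base. Rabl2 was at 156 to 317 TPM in controls (median 231) and at 90.4 to 224 TPM in Taar5+ cells (median 169), a difference of -0.52 (unadjusted p = 0.0285, adjusted p = 0.587, limma). The 8 other BBS genes had a median of 0.01, and Rab8a, a GTPase of vesicle traffic to the cilium, was the highest of them (medians of 146 and 117 TPM). The 15 tested genes of the other transition zone list had a median of 0.15, and Tmem107, a transition zone membrane protein, was the highest (269 and 283 TPM).

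The list of lipidated cargo genes names proteins that work with ARL3, among them the cargo carriers Unc119, Unc119b and Pde6d. Of its 8 genes, 6 were tested, 3 had a positive and 3 a negative difference, and the median was 0.07. Pde6d was the highest, at 801 to 1411 TPM in controls (median 1196) and at 659 to 1468 TPM in Taar5+ cells (median 939), with a difference of -0.11 (adjusted p = 0.97, limma). The 6 transcription factor genes of ciliogenesis had a median of -0.02, with the highest level in Rfx3, a factor that binds X-boxes (medians of 43.1 and 37.3 TPM). The 7 genes of olfactory signalling in cilia had a median of 0.22. Gng13, a G protein subunit of the OSN cilium, was at 3894 to 14857 TPM in controls and 4821 to 14283 TPM in Taar5+ cells. Without control replicate 2, the medians were -0.24 for other transport, -0.07 for other BBS and -0.15 for other transition zone genes. They were -0.27 for lipidated cargo, -0.30 for ciliogenesis and -0.02 for olfactory signalling genes, each below 0.

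Multiciliated cells of the neighbouring respiratory epithelium could also bring cilia genes into a sort. Of 20 genes of motile cilia, 14 were in the table under the symbols searched. Dnah5, Dnah9, Dnah11, Cfap43, Mcidas and Deup1 were not, and other symbols for them were not examined. The summed level of the 14 was 1107 to 2302 TPM in controls (median 1889) and 1595 to 2144 TPM in Taar5+ cells (median 1802). Rsph9, a radial spoke gene, made up the largest part, at 489 to 774 TPM in controls and 467 to 767 TPM in Taar5+ cells. Other genes of the list were also well above 0, with medians in control and Taar5+ cells of 331 and 312 TPM for Dynlrb2, 267 and 216 TPM for Rsph1, 244 and 134 TPM for Tppp3, 221 and 157 TPM for Tekt1, and 89.3 and 94.3 TPM for Ccdc40. The lowest genes of the list were Gmnc and Hydin. Gmnc, which starts the multiciliated programme, was listed at 0 in 8 of 9 controls and in 6 of 7 Taar5+ libraries. Hydin, encoding a protein of the central pair of motile axonemes, stayed between 0.259 and 6.97 TPM. None of the 13 tested genes passed the test. Dnaic2 (-2.12) and Ccno (2.35) had an unadjusted p under 0.05 (adjusted p = 0.526 and 0.320, limma), which held for 7.05% of all genes tested.

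Markers of other cells of the MOE varied between libraries, and most of their sums had a lower median in Taar5+ cells. The summed level of 3 horizontal basal cell genes had a median of 98.0 TPM in controls and 5.01 TPM in Taar5+ cells, and that of 6 blood and immune genes one of 172 and 5.57 TPM. The ranges overlapped for both, at 0 to 123 against 0 to 181 TPM and 98.5 to 620.5 against 0 to 295 TPM. For 5 progenitor genes the medians were 62.0 and 3.30 TPM, for 3 microvillar cell genes 122 and 5.73 TPM, and for 5 ensheathing glia genes 66.5 and 18.2 TPM. For 6 sustentacular genes they were 1489 and 745 TPM, although the median difference of these genes on the log2 scale was positive (0.64), with single libraries up to 10430 TPM in controls and 17068 TPM in Taar5+ cells, and for 4 gland genes they were 72.4 and 43.8 TPM. For 5 immature OSN genes they were 3627 and 2127 TPM. All 3 horizontal basal cell genes, 4 of the blood and immune genes and the microvillar cell gene Ascl3 (-2.81) had a negative difference at an unadjusted p under 0.05, and none passed the adjusted test with all 16 libraries. Without control replicate 2, Krt14 (-3.69, adjusted p = 0.0193) and 2 blood and immune genes, Cd74 and Tyrobp, passed it in limma. The part of these cells in the values of the cilia genes was not tested.

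Of all marker genes, 1 passed the test. It was Stoml3, an olfactory stomatin located in OSN cilia, which is not one of the 41. It was at 8364 to 24318 TPM in controls (median 13655) and at 2900 to 7921 TPM in Taar5+ cells (median 5531), without overlap. The difference was -1.42 (SE 0.24, adjusted p = 0.00994, limma). It no longer passed without the filter on low values (-1.42, adjusted p = 0.0625), after centring (-1.61, adjusted p = 0.469) or without the trend in eBayes (-1.42, adjusted p = 0.136), while the difference itself stayed as large. The 9 mature OSN genes, Stoml3 included, had 7 positive and 2 negative differences. Their median difference was 0.22 with all 16 libraries and -0.02 without control replicate 2. Summed levels were 17944 to 61247 TPM in controls and 27388 to 39967 TPM in Taar5+ cells.

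In the Taar6 line there is 1 library per group, so differences within it have no replicate check. Taar6+ was higher than its control for 12 of the 41 genes (29.3%, and 29.1% of all genes tested) and lower for 29. The median difference was -0.16 on the log2 scale, beside -0.19 for all genes tested. Single genes ran from -0.75 (Ttc21b) to 0.53 (Bbs12). Marker sums also differed between these libraries, from control to Taar6+ cells at 689 and 3490 TPM for sustentacular genes, 340 and 774 TPM for blood and immune genes and 3300 and 2010 TPM for immature OSN genes, and their part in these differences was not tested. Arl3 was at 661 TPM in the control and 560.1 TPM in Taar6+ cells, a difference of -0.24. Whether the difference between reporter-positive and reporter-negative cells differed between the lines was examined in limma over all 18 libraries, which borrows the spread of the Taar5 line and assumes that the lone Taar6 line libraries vary like the others. It can say little about a line with 1 library per group. No gene of the 41 passed (lowest unadjusted p = 0.571) and none of the 12502 genes did, while 23 genes had an unadjusted p under 0.05. With a pseudocount of 0.1, 2 genes passed, and none of the 41 was among them.

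Between the lines, levels differed more. Both libraries of the Taar6 line lay above all 16 libraries of the Taar5 line for 12 of the 41 genes (29.3%), where this held for 22.9% of all genes tested (2868). They lay below all 16 for none of the 41, and for 521 of all 12502 genes tested. A gene listed at 0 in any Taar5 line library cannot lie below all 16. In control replicate 2 alone this concerns 19 of the 41 genes and 55.2% of all genes tested, so the 2 counts cannot be compared. The 12 were Kifap3, Cep290, Ift140, Bbs1, Kif3b, Kif17, Ift172, Wdr19, Tctn1, Ift81, Rpgrip1l and Dync2h1. Bbs1, which was at 0 to 30.7 TPM in the Taar5 line, was at 79.5 TPM in the Taar6 line control and 86.3 TPM in Taar6+ cells. Tctn1, at 0 to 29.1 TPM in the Taar5 line, was at 40.3 and 29.4 TPM. Rpgrip1l, at 1.05 to 18.6 TPM, was at 49.9 and 54.4 TPM, and Cep290, a scaffold that tethers the membrane to the ciliary base, went from 8.27 to 22.2 TPM in the Taar5 line to 35.3 and 40.6 TPM.

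The genes that were higher in the Taar6 line tended to have long transcripts. For the 28 genes whose longest coding transcript in GENCODE M21 has at least 2500 bases, the Taar6 line mean exceeded the Taar5 line median by 0.81 (median over genes, log2 scale). For the 12 shorter ones the median was 0.03. Over the 40 genes with a length, Spearman's rho between length and this difference was 0.81, beside 0.51 over 11317 genes tested, where long and short genes had medians of 0.97 and -0.12. These are correlations across genes, which share the same 18 libraries and are not independent. Length also went with a lower level in the Taar5 line (rho -0.72 for the 40 genes, -0.31 for the 11317). Lower levels in the Taar5 line went with a larger difference between the lines (rho -0.66 and -0.59). The parts of length and level in this difference were not tested. The housekeeping genes Gapdh (6.06 and 1.43 TPM) and Ppia (listed at 0 in both) were low in the Taar6 line, against 436 to 1222 TPM and 971 to 1805 TPM in the Taar5 line. Line, reporter, age and any difference in processing cannot be told apart.

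**Figure D5:**
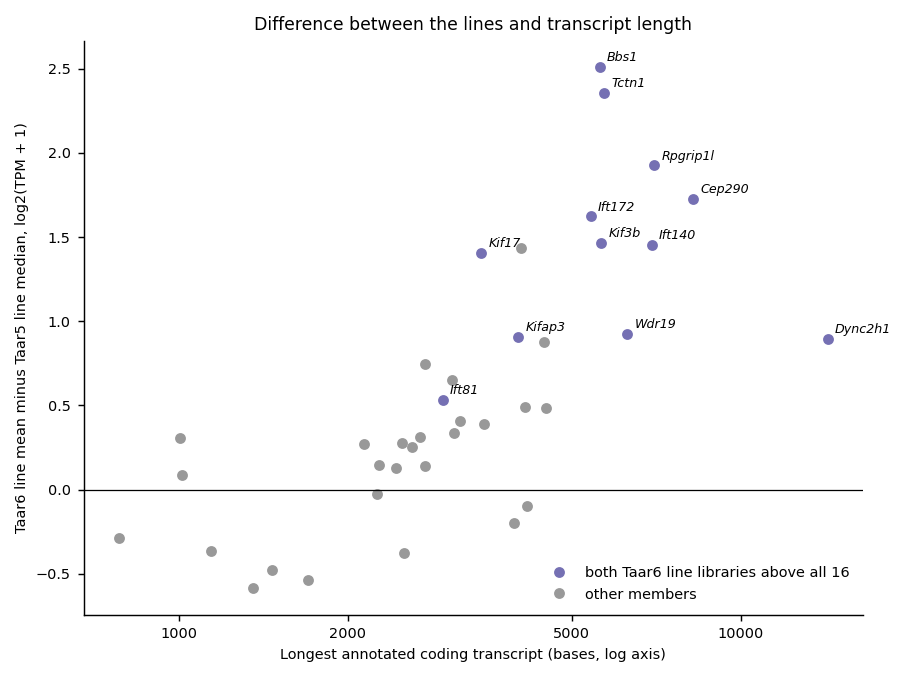
Difference between the Taar6 line mean and the Taar5 line median of each gene (y axis, log2(TPM + 1)) against the length of its longest coding transcript (x axis, bases, log scale) for the genes with a length, of which 1 is not shown. The 12 genes with both Taar6 line libraries above all 16 others are named, and by this choice they lie above 0. The shorter genes scatter around 0 (median 0.03 below 2500 bases).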

How the data were processed

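RNA-seq libraries of sorted cells were made with Smart-seq2, which has no molecular identifiers. Per the submitters' processing notes and the study's methods, the authors used Trimmomatic 0.36, HISAT2 2.1.0 (GRCm38/mm10) and Cufflinks 2.2.1. The deposited values are TPM. How the authors derived TPM, the annotation, filters and the treatment of reads that match several genes are not given in the sources used here. Depth is unknown, no counting error can be given, and a 0 may be a failed estimate.

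The table had 23847 rows, and 488 rows that repeat a symbol were summed with it. The 13 Taar values that control replicate 2 shares with replicate 1 were left out for replicate 2. The 12502 genes that reached 1 TPM in 7 or more of 16 libraries entered a limma 3.58.1 fit (R 4.3.3, functions lmFit and eBayes, the latter with trend) of log2(TPM + 1) in 7 Taar5+ against 9 control libraries. P-values were adjusted by Benjamini-Hochberg, and those under 0.05 passed. This scale understates the change of low genes. Tables were handled in Python 3.11.15 (numpy 2.4.6, pandas 2.3.3). Positions and lengths are from GENCODE M21 (GRCm38), and promoters from RefSeq. Of the 40 members with a protein-coding gene model, none shares over 10% of its 50-base words with another gene. The gene model of Tctn2 is annotated as a processed transcript, so it has no coding length and was not checked.

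Of the 41 members, 1 is counted but not reported here by itself. The members and lists were chosen with earlier results of these data known. In each class, values are given for the gene with the highest mean and the largest positive and negative difference, and for any with an unadjusted p under 0.05 or no overlap; of other lists, for those that passed the test and the highest. Promoter stretches are shown for all genes with at most 1 mismatch. Motile cilia genes named beyond this, Ascl3 and the genes of the Taar6 line were chosen after their values were seen. Alternatives were other pseudocounts, filters and normalizations, eBayes without trend, array weights, first rows of repeated symbols, a replicate block, all 18 libraries, and leaving out libraries.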

Additional observations from a re-analysis of the deposited data

Results flagged for a closer look

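For the 19 genes described with group ranges, each group was checked for a library far from the rest (Dixon's criterion at 95% on the log2(TPM + 1) scale). Of 38 groups checked, 10 were flagged. Chance flags about 1 in 20 groups, but this rate does not apply here, since Ift140, Ift27, Kif3b, Dync2h1, Bbs5 and Arl6 were described for the largest positive difference of their class, which a 0 in a control library raises. In control replicate 2, 7 genes were flagged, each listed at 0 TPM. The other controls began at 16.2 TPM for Ift140, 91.6 TPM for Ift27, 13.8 TPM for Kif3b, 14.2 TPM for Dync2h1, 70.2 TPM for Bbs5, 239 TPM for Arl6 and 29.3 TPM for Tctn2.

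In Taar5+ replicate 4, Bbs10 was listed at 0 TPM, with the other Taar5+ libraries from 10.6 to 21.9 TPM, and Tctn2 was at 6.18 TPM, with the others from 39.6 to 66.5 TPM. This library had the second lowest number of genes above 0 in the Taar5 line (9784). Arl3 was at 913 TPM in control replicate 4, with the other controls from 459 to 638 TPM. Without control replicate 4 the Arl3 difference was -0.41 (adjusted p = 0.388, limma).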

How the results depend on the processing

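The differences of the 19 genes described with group ranges were recomputed under 13 alternatives and with each of the 16 libraries left out. Of the 41 genes, none passed the test with any library left out, and in the 13 alternatives only Arl3 did, with array weights (1 gene; -0.36, adjusted p = 0.0277). The Arl3 difference was negative in each, and its adjusted p lay between 0.11 and 0.978 in the others. Whether positive or negative differences were more frequent depended on control replicate 2 and on the processing. The count of positive differences was 25 with all libraries, 8 to 27 with 1 library left out (8 without control replicate 2), 14 after centring, 7 with array weights and 9 with control replicate 2 and Taar5+ replicate 5 both left out. Of all genes tested, 51.4% were positive with all libraries and 35.0% without control replicate 2. Centring moved the median of all genes tested from 0.02 to -0.17. Of the other cilia lists, 4 genes passed with array weights (Dnaic2, Ccno, Cnga4, Tppp3) and 2 with both libraries left out (Dnaic2, Tppp3), against 0 in the fit of all 16.

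Over all genes, 21 passed with all 16 libraries, 109 after quantile normalization, 92 after centring, 11 after rescaling without receptor genes, 1349 with array weights and 337 with both libraries left out. With 1 library left out, 16 to 148 passed (148 without control replicate 2, 66 without Taar5+ replicate 5). The share of higher genes among these was 85.7% in the fit of all 16, 32.1% after quantile normalization, 17.4% after centring, 72.7% after rescaling, 13.4% with array weights and 20.9% without control replicate 2.

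Signs turned for some genes, both near 0 and further from it (Bbs5, Ift27 and Arl6). Bbs10 was at -0.081 with a pseudocount of 5, -0.040 after quantile normalization, -0.16 after centring and -0.44 with both libraries left out. Kifap3 was at 0.0072 after quantile normalization. Ift20 was at -0.14 after centring and -0.12 with array weights. With array weights, Ift27 was at -0.14, Bbs5 at -0.035, Arl6 at -0.28 and Tctn2 at -0.022. With both libraries left out, Ift27 was at -0.21, Arl6 at -0.23 and Tctn2 at -0.38. With 1 library left out, the differences ran from -0.17 to 0.0078 for Ift43, -0.071 to 0.14 for Ift20, -0.23 to 0.75 for Ift27, -0.25 to 0.055 for Kifap3, -0.26 to 0.017 for Dync2li1, -0.38 to 0.59 for Bbs10, -0.37 to 0.69 for Arl6 and -0.33 to 0.69 for Tctn2. The cause was not tested. Depth is unknown, so what it limits cannot be stated.

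Controls and Taar5+ libraries share replicate numbers 1 to 7. Same-numbered libraries correlated at -0.0062 to 0.275 in their deviations from the group means, and 3 of 7 Taar5+ libraries correlated best with the control of their own number. This does not settle whether the numbers mark pairs, and the main fit did not pair them. With a replicate block, 12 genes and none of the 41 passed, and Dync2li1 was at 0.021.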
